A study of Mus musculus with 9 samples.

Results

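MyC-CaP is a prostate cancer cell line from a mouse that carries a human MYC transgene under the prostate-specific probasin promoter, and ASPN (asporin) is a small leucine-rich protein secreted by fibroblasts around the tumor. RNA-Seq gene counts of MyC-CaP cells were compared between 24 and 12 hours of exposure to recombinant mouse ASPN at 100 ng/mL, which is the later interval of a time course. The members are the 6 libraries with these labels of 9 in the series, 3 of 12 hours and 3 of 24 hours, and every protein-coding gene of the count table. Cells of both groups were plated as separate wells, were starved of serum and calcium beforehand, and received the same dose, so time is the only label that differs. Cells kept for 12 or 24 hours without ASPN were not analysed here, and the hours with ASPN cannot be told apart from the hours in culture after starvation. The 3 libraries of a time are labeled biological replicates of 1 cell line, so their spread is that between wells.

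ErbB receptors are receptor tyrosine kinases, and the study examined their role in the response to ASPN. Ligand binding to HER3 (the product of Erbb3) pairs it with HER2 (Erbb2), and the pair activates ERK, AKT and calcium signaling. ERK signaling typically induces immediate-early genes such as Egr1 and Fos within the hour, and cells that re-enter the cycle later induce genes of DNA replication through E2F factors. Inflammatory genes driven by NF-kB include chemokines, acute-phase proteins and the inhibitors that shut the pathway off again.

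The counts on the genes of a library totaled 41881191 to 44766173 at 12 hours and 44779129 to 52993821 at 24 hours, and 3 counts corresponded to 0.0566 to 0.0716 CPM (counts scaled to a fixed library total). The 10 most abundant genes held 7.67% to 7.80% of the counts at 12 hours and 9.81% to 10.1% at 24 hours, and mitochondrially encoded genes 2.63% to 2.85% and 0.113% to 0.203%. Levels below are CPM scaled with TMM factors, which were 1.08 to 1.09 at 12 hours and 0.919 to 0.930 at 24 hours. The labels call the cells epithelial-like. Of 13 markers of luminal prostate epithelium, 6 were under 1 CPM in all 6 libraries, among them Epcam and Tmprss2 with no count, Cdh1, Cldn7 and Krt18. Cldn3, Foxa1, Krt19, Hoxb13, Krt8 and Cldn4 were among the markers detected. The 5 markers of basal epithelium summed to 162 to 191 CPM, most of it Krt15 and Itga6, and 3 of them were under 1 CPM in all libraries. Summed markers of leukocytes stayed at 0.317 to 0.751 CPM and those of endothelium at 0.0406 to 0.120 CPM. The fibroblast markers summed to 8.96 to 12.1 CPM, most of it Pdgfra.

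Of the 11394 genes tested, 2924 (25.7%) were called, 1184 of them higher at 24 hours (10.4%) and 1740 lower (15.3%). A call required a fold change of 1.5 or more and, in the quasi-likelihood test of edgeR, a Benjamini-Hochberg adjusted p that did not exceed 0.05. In this fit, counts of called genes in a gene list are read against these shares of 10.4% and 15.3%. Counts under total counts or with offsets for length and GC content are read against all calls in that setting, given below. The immediate-early genes Egr1 and Fos, the inflammatory genes Saa3, Ptgs2 and Lcn2 and the growth factor Pgf were among the genes with the largest rises, while mRNAs of the mitochondrial genome had the largest falls among genes with a mean of at least 100 counts. Ribosomal protein genes rose together, with a median log2 fold change of 0.90 in this fit. Falls were more often large, since 730 genes fell and 214 rose by 2-fold or more, and 88 fell and 19 rose by 4-fold or more. The groups did not overlap for 8431 genes (74.0%) and for 2903 of the 2924 called genes. With library totals in place of TMM factors (total counts), 484 of 11394 genes were called higher and 2830 lower. The log2 fold changes of all tested genes then had a median of -0.219 in place of 0.0039. With offsets for transcript length and GC content in the fit, 1265 of 11369 genes were called higher and 1231 lower, with a median of 0.053. The offsets were fitted to the same 6 libraries, so they also take out any change between times that follows length or GC content. In bulk libraries, fewer cells that express a gene and less RNA per cell cannot be told apart.

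**Figure D1:**
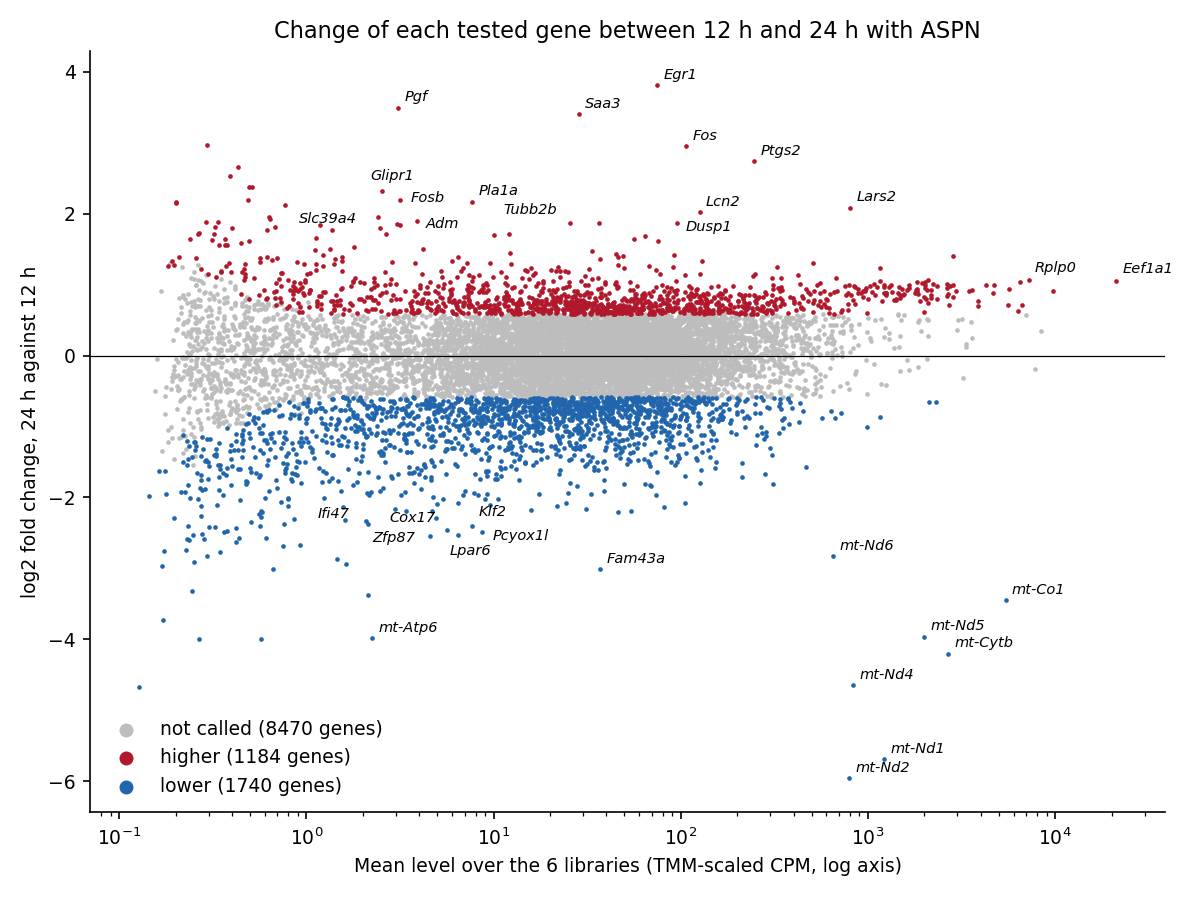
Mean level over the 6 libraries (x axis, TMM-scaled CPM, log axis) against the log2 fold change of 24 against 12 hours (y axis) for the 11394 tested genes, each a point. Red points are the 1184 genes called higher, blue points the 1740 called lower, and the labeled mitochondrial genes other than mt-Atp6 lie at the lower right, with mt-Nd2 at -5.95.

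Several immediate-early genes, which mitogens and stress induce within minutes, were higher at 24 than at 12 hours. Egr1, a zinc-finger transcription factor, was at 9.09, 10.8 and 10.1 CPM at 12 hours and 149, 138 and 132 CPM at 24 hours. It rose 14.0-fold, the largest rise of any called gene (log2 fold change 3.81, SE 0.065, edgeR adjusted p = 3.1e-13). Fos, a subunit of the AP-1 transcription factor (chr12:85473890-85477273), was at 24.3, 25.2 and 24.0 CPM at 12 hours and 196, 188 and 184 CPM at 24 hours. The 24 hour libraries were all above the 12 hour libraries, and the rise was 7.72-fold (log2 2.95, SE 0.043). Its relative Fosb, at a much lower level, was at 1.37, 1.06 and 0.973 CPM at 12 hours and 4.65, 5.96 and 5.02 CPM at 24 hours. Dusp1, a phosphatase that inactivates MAP kinases, rose from 40.9 ± 2.52 to 149 ± 10.03 CPM (mean ± SD, n = 3 libraries a time, here and below).

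Not every output of the ERK pathway moved with them. Of 22 tested genes of a list of ERK outputs and feedback inhibitors, 7 were called higher (31.8%, against 10.4% of all tested genes) and 3 lower (13.6%, against 15.3%), with a median log2 fold change of 0.35 against 0.0039 over all tested genes. Fosl1 and Dusp4, both ERK targets, were called higher at log2 fold changes of 1.01 and 0.59, while Jun, at -0.10, and Dusp6, at 0.41, were not called. Myc, the mouse gene of the MYC transcription factor (chr15:61985391-61990374), was at 84.5, 91.9 and 91.7 CPM at 12 hours and 40.8, 41.2 and 38.9 CPM at 24 hours, a 2.22-fold fall (log2 -1.15, SE 0.047). Whether reads of the human transgene were counted on mouse Myc was not tested. Ccnd1, which encodes cyclin D1 and links growth signals to the cycle, fell from 244 ± 5.37 to 150.1 ± 10.8 CPM, and Spred1, an inhibitor of RAS-ERK signaling, fell by 0.74 on the log2 scale. Fosl1, Dusp4, Jun, Dusp6, Ccnd1 and Spred1 were added to the named genes after their values were seen.

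The receptors of the ErbB family were lower or little changed at 24 hours. Erbb2 (chr11:98412470-98437716) was at 192, 188 and 187 CPM at 12 hours and 86.3, 103 and 95.5 CPM at 24 hours, and fell 1.99-fold (log2 -0.99, SE 0.054, edgeR adjusted p = 2.7e-09). All 24 hour libraries lay below all 12 hour libraries, but with offsets for length and GC content Erbb2 was not called (log2 -0.54). Erbb3 was at 79.8, 74.9 and 73.0 CPM at 12 hours and 53.6, 55.7 and 55.3 CPM at 24 hours. Its 24 hour libraries were also all lower (log2 -0.47, SE 0.044, edgeR adjusted p = 5.8e-07), but the fold of 1.38 was under the threshold and it was not called, though under total counts it was (log2 -0.69). With the offsets the log2 fold change of Erbb3 was -0.098 (edgeR adjusted p = 0.055). Egfr, the EGF receptor, had a log2 fold change of -0.26 (SE 0.042) and was not called either. Of the ligands, Hbegf, the heparin-binding EGF-like growth factor, rose from 8.44 ± 0.933 to 15.2 ± 1.21 CPM, whereas Tgfa (log2 0.0058, SE 0.094) and Btc (log2 -0.027, SE 0.16), named after their values were seen, were within their error of no change. Errfi1, a feedback inhibitor of ErbB kinases, rose from 612 ± 20.9 to 956 ± 41.7 CPM, a call that ended under total counts (log2 0.42). In all, 2 of 10 tested ErbB genes were called higher and 1 lower, where 10.4% and 15.3% of all tested genes were, and under total counts 1 and 2. Erbb4, Epgn and Nrg2 had too few counts for the test.

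Among inflammatory genes, acute-phase and antimicrobial genes were more often called higher, and genes of the list of NF-kB factors and feedback inhibitors more often lower. Saa3, an acute-phase serum amyloid A protein (chr7:46711998-46715700), was at 4.88, 6.29 and 3.45 CPM at 12 hours and 54.0, 50.4 and 51.6 CPM at 24 hours, a 10.6-fold rise (log2 3.41, SE 0.13, edgeR adjusted p = 1.3e-10). Ptgs2, the inducible cyclooxygenase that makes prostaglandins (chr1:150100031-150108227), was at 64.1, 65.5 and 63.2 CPM at 12 hours and 420.2, 451 and 418 CPM at 24 hours. Lcn2, which binds bacterial siderophores, was at 45.4, 59.6 and 44.7 CPM at 12 hours and 187, 205 and 216 CPM at 24 hours, and the complement component C3 rose from 37.2 ± 3.47 to 114 ± 6.31 CPM. For each of these genes, all 24 hour libraries lay above all 12 hour libraries. Of 14 tested genes of the acute-phase, antimicrobial and complement list, 8 were called higher (57.1%, against 10.4% of all tested genes) and 2 lower (14.3%, against 15.3%), with a median log2 fold change of 0.66. Under total counts 4 were called higher and 3 lower, with a median of 0.44. The exceptions were Defb1, a beta-defensin, and Steap4, a metalloreductase that fell from 315 ± 36.1 to 111 ± 10.98 CPM. Nos2, the inducible nitric oxide synthase, was called higher (log2 0.63, SE 0.20), but not without 12 hour replicate 1 (0.48) or without 24 hour replicate 2 (0.35).

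Chemokines had no common direction, though genes of the list of chemokines and cytokines were called higher more often than all tested genes. Cxcl1, a neutrophil chemokine, was at 442, 522 and 429.9 CPM at 12 hours and 398, 474 and 417 CPM at 24 hours, with overlapping groups (log2 -0.11, SE 0.073, edgeR adjusted p = 0.18). Cxcl5 also overlapped (log2 0.30, SE 0.10). Cxcl15 rose from 193 ± 9.41 to 458 ± 4.82 CPM, Ccl5 from 1.25 ± 0.135 to 4.08 ± 0.767 and Cxcl3 from 0.857 ± 0.289 to 2.25 ± 0.355, while Csf1, the macrophage growth factor, fell from 116 ± 15.6 to 52.9 ± 8.34. Of the 20 tested chemokines and cytokines, 5 were called higher (25%, against 10.4% of all tested genes) and 2 lower (10%, against 15.3%). Of the 20, 10 had a log2 fold change above 0, and the median was 0.028. Under total counts 4 were called higher and 2 lower, when 484 and 2830 of all 11394 tested genes were. The median was -0.19 under total counts and ranged from -0.088 without 24 hour replicate 3 to 0.20 without 24 hour replicate 1.

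Among the NF-kB factors and their feedback inhibitors, 7 of 21 tested genes were called lower (33.3%, against 15.3% of all tested genes) and 1 higher (4.76%, against 10.4%), with a median of -0.22. Nfkbiz, an inducible nuclear IkB protein, was at 187, 202 and 189 CPM at 12 hours and 58.4, 65.2 and 64.8 CPM at 24 hours, a 3.07-fold fall. Bcl3, another nuclear IkB protein, fell from 83.3 ± 5.67 to 39.2 ± 5.54 CPM, Nfkbie (IkB epsilon) from 18.4 ± 2.93 to 9.79 ± 0.306, and Birc2, a ubiquitin ligase of the TNF receptor, from 28.2 ± 0.187 to 16.3 ± 1.75. With offsets for transcript length and GC content 5 were called lower and the median was 0.0061, when that of all genes was 0.053. The direction of the list is not stable to this choice. The factors themselves, Rela (log2 -0.085), Relb (0.029) and Nfkb2 (0.022), were not called, and were named after their values were seen.

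Interferon and STAT genes differed among themselves too. The guanylate-binding proteins Gbp2 and Gbp3, which interferon induces, rose 3.29-fold and 3.58-fold, and Psmb9, a subunit of the immunoproteasome, rose from 1.5 ± 0.337 to 3.06 ± 0.617 CPM. Irf1, a transcription factor upstream of many such genes, was at 140.3, 145 and 141 CPM at 12 hours and 46.9, 54.6 and 55.5 CPM at 24 hours. It fell 2.71-fold, with no overlap. The interferon list had 6 of 26 genes called higher (23.1%, against 10.4% of all tested genes) and 2 lower (7.69%, against 15.3%). Under total counts 4 were called higher and 5 lower, when 484 and 2830 of all 11394 tested genes were. Of 14 genes of STAT3 signaling and its SOCS inhibitors, 2 were called higher and 4 lower, and under total counts 1 and 7. Il6st, the shared receptor subunit of IL-6 cytokines, fell from 100.5 ± 7.22 to 56.9 ± 4.75 CPM, Stat5a from 46.4 ± 1.11 to 22.7 ± 0.422 and the inhibitor Socs1 from 1.86 ± 0.167 to 0.844 ± 0.0894, and the kinase Pim3 rose from 459 ± 31.5 to 858 ± 96.7.

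**Figure D2:**
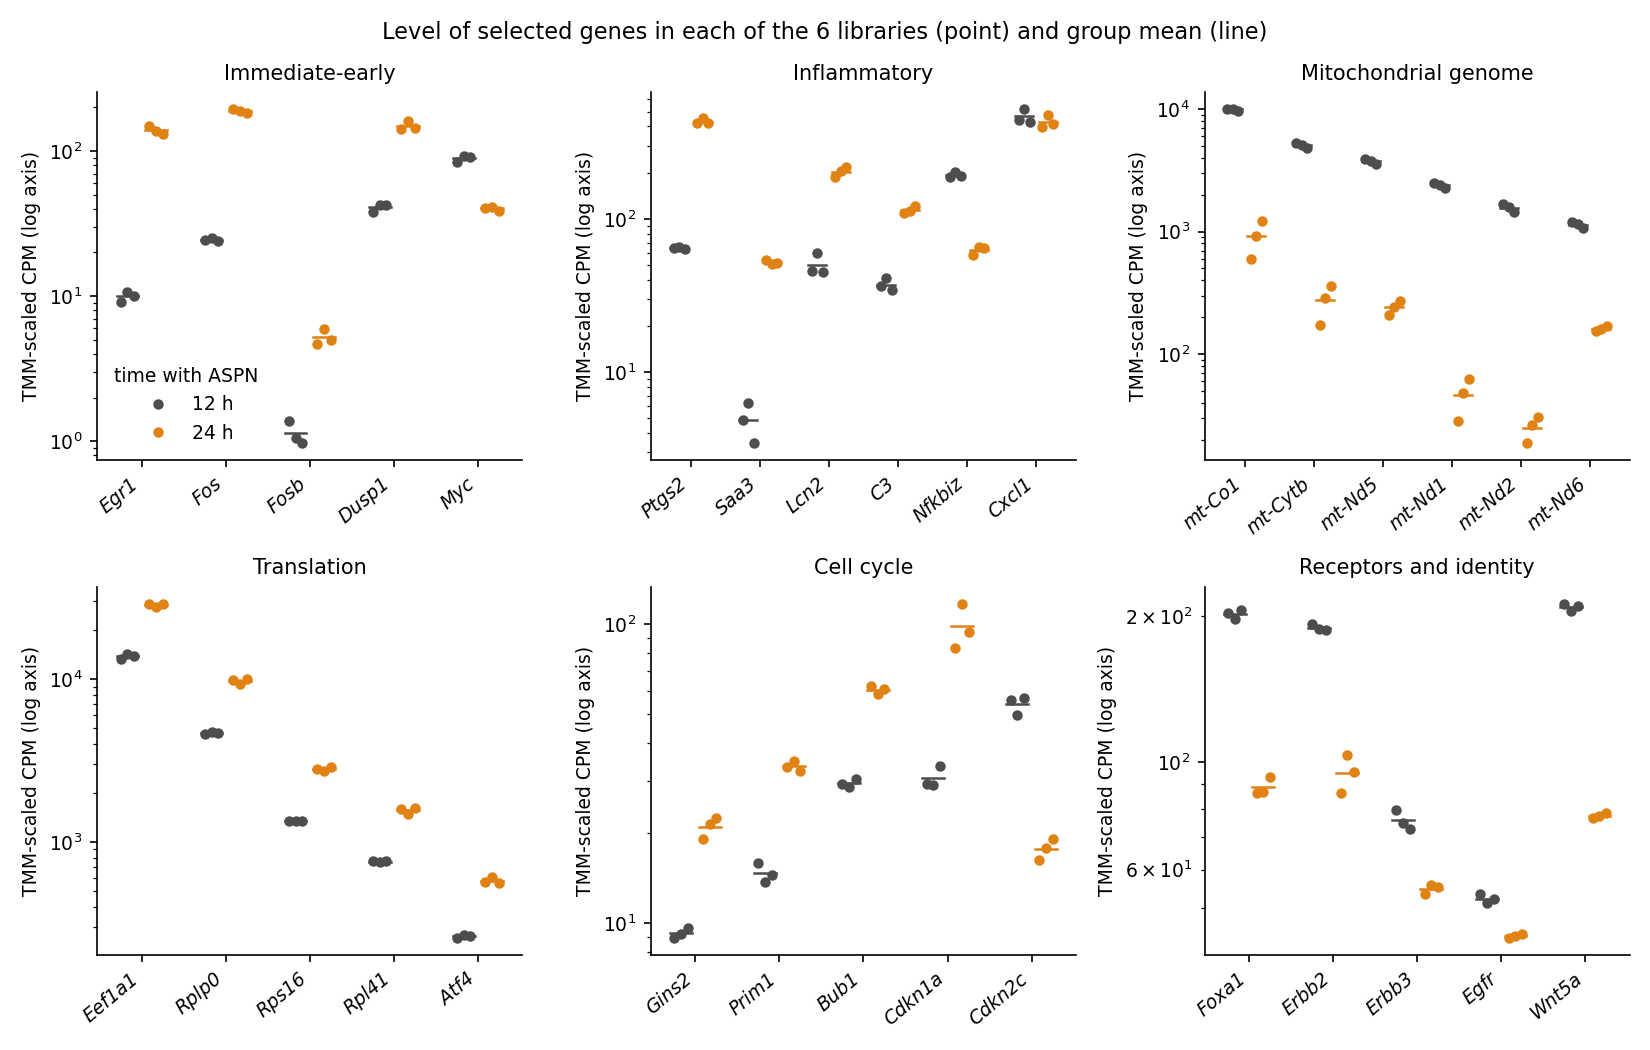
Level of selected genes (y axis, TMM-scaled CPM, log axis) in the 3 libraries of 12 hours (grey) and of 24 hours (orange), 1 point a library, with a line at each group mean. Only Cxcl1 has overlapping groups among the genes drawn, and mt-Nd2 and mt-Nd1 lie furthest apart.

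Many genes of DNA replication were called higher at 24 hours. Of 40 tested genes, 21 were called higher (52.5%, against 10.4% of all tested genes) and none lower, and 37 had a log2 fold change above 0, with a median of 0.59. Gins2, a subunit of the CMG helicase, was at 8.92, 9.17 and 9.60 CPM at 12 hours and 19.1, 21.4 and 22.4 CPM at 24 hours, and Prim1, the catalytic subunit of primase, was at 15.9, 13.7 and 14.5 CPM at 12 hours and 33.4, 34.8 and 32.3 CPM at 24 hours. Both rose 2.28-fold, with no overlap. Prim2, the other primase subunit, rose from 9.89 ± 0.959 to 20.9 ± 0.154 CPM. Under total counts 12 of the 40 genes were called higher and none lower, with a median of 0.37.

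Stretches of 4 promoters are shown because they carry the letters of the E2F motif, the site through which E2F factors control replication genes. They come from RefSeq (GRCm38.p6), are given 5′ to 3′ on the strand of the gene and end at the annotated start or earlier, and capitals mark the match on either strand. The letters searched were TTTGGCGC, TTTCCCGC, TTTGCCGC and TTTCGCGC in 300 bases around the start. The genes shown, Mcm5 (a helicase subunit, log2 1.00), Orc1 (origin recognition, 0.96), Pola1 (DNA polymerase alpha, 0.89) and Mcm7 (a helicase subunit, 0.61) are 4 of the called replication genes with a match upstream of the start, chosen after their values were seen. In Mcm5, 2 matches overlap.
Mcm5, chr8:75109306-75109417, plus strand: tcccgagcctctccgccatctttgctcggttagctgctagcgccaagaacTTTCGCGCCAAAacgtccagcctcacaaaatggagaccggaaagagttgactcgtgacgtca
Orc1, chr4:108579377-108579453, plus strand: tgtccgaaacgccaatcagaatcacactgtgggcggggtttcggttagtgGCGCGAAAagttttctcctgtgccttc
Pola1, chrX:93632236-93632343, minus strand: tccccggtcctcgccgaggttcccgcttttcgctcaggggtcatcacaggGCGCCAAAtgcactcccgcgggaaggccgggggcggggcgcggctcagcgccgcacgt
Mcm7, chr5:138171991-138172098, minus strand: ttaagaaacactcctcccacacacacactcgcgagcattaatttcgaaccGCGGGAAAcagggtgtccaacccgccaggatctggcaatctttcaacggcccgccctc

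A promoter window was found by symbol for 9110 of 11393 tested symbols. The E2F letters stood in 14 of the 32 replication genes with a window (43.8%) and in 444 of all 9110 (4.87%). They stood in 6.33% of the genes called higher and in 3.10% of those called lower. Of the 14 replication genes with a match, 8 were called higher and 6, with log2 fold changes of 0.19 to 0.56, were not. Genes of mitosis held the letters in 1 of 28 windows (3.57%), close to the share of all genes. They held CCAAT, the site of the factor NF-Y, in 22 of 28 (78.6%) against 43.9% of all. CCAAT also stood in 12 of 13 clock, 20 of 32 replication, 15 of 23 ATF4 and 7 of 13 ERK genes. It stood in 19 of 60 ribosomal protein, 4 of 17 NF-kB and 0 of 10 acute-phase genes. The AP-1 site TGANTCA stood in 7.94% of genes called higher, 5.67% of those called lower and 6.17% of all, and the CRE site TGACGTCA in 5.04%, 3.61% and 3.74%. A match gives letters, not a site in use.

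Some mitosis and checkpoint genes were higher too. Of 34 tested genes of G2/M and the spindle, 9 were called higher (26.5%, against 10.4% of all tested genes) and none lower, with a median of 0.41. Under total counts 4 were called higher, with a median of 0.18. Bub1, a kinase of the spindle checkpoint, was at 29.3, 28.6 and 30.3 CPM at 12 hours and 62.2, 58.5 and 60.8 CPM at 24 hours. Ttk and Cenpe, which act at kinetochores, rose from 12.6 ± 1.45 to 23.4 ± 0.841 CPM and from 55.4 ± 2.98 to 99.4 ± 8.55 CPM, and Ect2, which is needed for cytokinesis, from 60.6 ± 2.51 to 112 ± 2.58 CPM. In contrast, Top2a (log2 -0.27), Plk1 (-0.26) and Ccnb1 (-0.23), which also mark G2 and mitosis and were named after their values were seen, had values below 0 and were not called.

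Inhibitors of the cell cycle moved in opposite directions. Cdkn1a, the p21 inhibitor of cyclin-dependent kinases and a target of p53 (chr17:29090976-29100727), was at 29.2, 29.1 and 33.6 CPM at 12 hours and 83.4, 117 and 94.5 CPM at 24 hours, a 3.22-fold rise. Cdkn2c, the p18 inhibitor of CDK4 and CDK6, was at 56.0, 49.8 and 56.8 CPM at 12 hours and 16.2, 17.9 and 19.1 CPM at 24 hours, a 3.05-fold fall. E2f1 rose from 16.8 ± 0.815 to 28.2 ± 2.96 CPM, and Rb1, which restrains E2F factors, from 19.2 ± 0.516 to 32.1 ± 2.63, and neither was called under total counts (log2 0.53 and 0.52). Of 27 tested regulators of G1 and S phase entry, 6 were called higher and 2 lower (median 0.22), and under total counts 1 and 3. Of 24 tested targets of p53, Cdkn1a among them, 4 were called higher and 3 lower, and under total counts 3 and 6. Plk3 rose 2.61-fold, whereas Trp53inp1 fell 2.75-fold and Zmat3 1.89-fold, and Trp53 itself was not called (log2 -0.12, SE 0.041).

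Cytosolic ribosomal protein genes rose almost without exception. Of 81 tested genes, 78 were called higher (96.3%) and none lower, with a median log2 fold change of 0.90. The most abundant, Rplp0, was at 4599.9, 4767 and 4662 CPM at 12 hours and 9882, 9371 and 10062 CPM at 24 hours. Rps16 was at 1349.9, 1349 and 1352 CPM at 12 hours and 2812, 2736 and 2907 CPM at 24 hours, and the rises of Rpl41 (log2 1.05) and Rps14 (1.04) were of the same size. The 3 that were not called were Rps27l (0.16), Rpl24 (-0.025) and Rps10 (-0.55). Under total counts 68 were called higher and 1 lower (median 0.675), and with offsets for length and GC content 71 and 1 (median 0.69). Ribosomal protein genes have many near-identical processed copies in the genome, so the counts of single members are uncertain.

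Other abundant genes of translation also rose. Eef1a1, the elongation factor that delivers tRNA, was at 13315, 14170.0 and 13899 CPM at 12 hours and 29074, 27791 and 28951 CPM at 24 hours, the highest level of any called gene, and its log2 fold change was 1.05. Eef2, the translocation factor (0.91), Pabpc1, the poly(A)-binding protein (0.94), and Tpt1, a growth-related protein (1.04), had log2 fold changes close to that. Genes that build the ribosome did not rise as a group, with 5 of 42 called higher, 4 lower and a median of -0.055. Under total counts 2 were called higher and 10 lower, and with offsets for length and GC content 3 and 1. Npm1, a nucleolar chaperone, rose from 3292 ± 77.3 to 6056 ± 206 CPM and Polr1c, a subunit of RNA polymerases I and III, from 109 ± 1.38 to 193 ± 6.02, while Ubtf, the factor of rRNA transcription, fell from 206 ± 2.12 to 111 ± 4.99 and Rrs1 from 64.8 ± 2.56 to 38.2 ± 3.29. Ubtf was not called with the offsets (log2 -0.52). Of 20 aminoacyl-tRNA synthetases, which charge tRNAs, 4 were called higher and none lower (median 0.31), and none of these 4 calls held under total counts.

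Many genes of the amino acid response to ATF4 were called higher at 24 hours. Atf4, its transcription factor, was at 258, 269 and 265 CPM at 12 hours and 568, 605 and 562 CPM at 24 hours, a 2.19-fold rise. Of 26 tested genes, 12 were called higher (46.2%, against 10.4% of all tested genes) and none lower, with a median of 0.58. Under total counts 7 were called higher, with a median of 0.36. Among them, Mthfd2, a mitochondrial enzyme of the folate cycle, rose from 78.9 ± 1.48 to 174 ± 12.5 CPM, and the stress factors Atf3 and Nupr1 rose 2.36-fold and 2.43-fold. Of 22 genes of ER chaperones and the unfolded protein response, 5 were called lower (22.7%, against 15.3% of all tested genes) and none higher (median -0.22). Sel1l and Syvn1, partners in ER-associated degradation, fell 2.18-fold and 2.02-fold, and Dnajb9, an ER co-chaperone, fell 1.98-fold. The cytosolic heat shock genes Hspa1a and Hspa1b, which are near-identical copies, fell 3.02-fold and 3.24-fold, whereas Hspa4l rose 1.96-fold and the abundant chaperone Hsp90ab1 1.55-fold, the last not under total counts. Of 28 genes of heat shock and cytosolic chaperones, 8 were called higher and 3 lower (median 0.34), and under total counts 1 and 4.

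mRNAs of the mitochondrial genome fell, and none of 74 listed nuclear genes of the respiratory chain and ATP synthase was called lower. All 12 tested mitochondrial mRNAs were called lower, with log2 fold changes of -5.95 to -2.58 and a median of -3.97. mt-Nd2, a subunit of complex I, was at 1668, 1579 and 1446 CPM at 12 hours and 18.8, 26.2 and 30.4 CPM at 24 hours, a 61.9-fold fall. mt-Nd1 was at 2472, 2399.7 and 2287 CPM at 12 hours and 28.2, 48.0 and 62.2 CPM at 24 hours, and mt-Co1, a subunit of complex IV and the most abundant of them, was at 10017, 10072 and 9728 CPM at 12 hours and 595, 917 and 1229 CPM at 24 hours. Each of these genes was lowest in replicate 1 and highest in replicate 3 among the 24 hour libraries, whereas the 12 hour libraries lay close together.

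mt-Nd6, the only mitochondrial mRNA from the light strand, fell least among the abundant ones, from 1142 ± 73.0 to 161 ± 8.17 CPM. mt-Co2, mt-Co3, mt-Atp6, mt-Nd3 and mt-Nd4l were under 6 CPM in every library. They have near-identical copies in the nuclear genome, and mt-Atp8 had too few counts for the test, so the values of these 6 genes are uncertain. Of 74 nuclear genes of the respiratory chain and ATP synthase, 10 were called higher (13.5%, against 10.4% of all tested genes) and none lower, and 65 had a log2 fold change above 0 (median 0.38). Under total counts 1 was called higher (median 0.15), and with offsets for length and GC content 2 were (median 0.19). Atp5g2, a ring subunit of ATP synthase, rose 1.98-fold, and Cox4i1, Cox8a and Atp5e, of cytochrome oxidase and ATP synthase, 1.72-, 1.70- and 1.69-fold. Under total counts and with offsets for length and GC content the last 3 named were not called. Cox17, the copper chaperone of complex IV and not on the list, fell from 9.57 ± 0.795 to 1.73 ± 0.115 CPM. Scaling without the mitochondrial genes left 2919 genes called.

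Lars2, the mitochondrial leucyl-tRNA synthetase, rose unevenly among libraries and was at 322, 309 and 289 CPM at 12 hours and 1975, 797 and 1129 CPM at 24 hours. All 24 hour libraries were above the 12 hour libraries, replicate 1 by the widest margin, and replicate 1 also had the lowest mitochondrial mRNA level of the 24 hour libraries. The mouse Lars2 transcript is known to hold a stretch like mitochondrial ribosomal RNA, and reads from either RNA cannot be told apart in these counts.

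**Figure D3:**
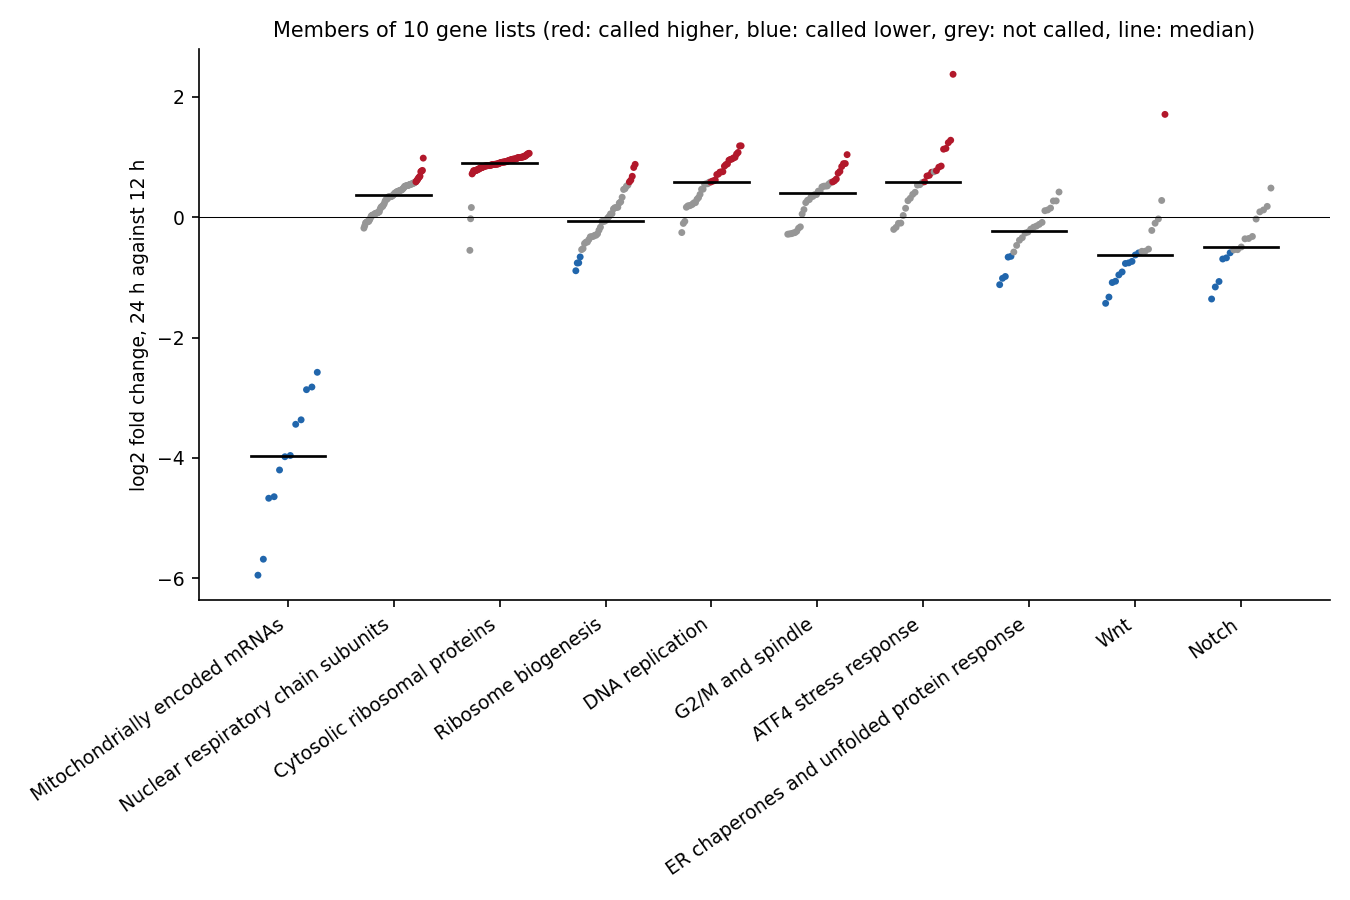
Log2 fold change of 24 against 12 hours (y axis) of each tested member of 10 gene lists, 1 point a gene, ordered by value within a list, with the median as a line. The 12 mitochondrially encoded mRNAs lie below -2, the ribosomal proteins form a narrow band near their median of 0.90, and the Wnt and Notch lists lie mostly below 0.

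Genes of Wnt, Notch and insulin signaling were called lower more often than higher. Wnt5a, a ligand of noncanonical Wnt signaling (chr14:28504750-28527448), was at 212, 205 and 210.2 CPM at 12 hours and 76.6, 77.5 and 78.4 CPM at 24 hours, a 2.70-fold fall. The Wnt receptor Fzd5 and the R-spondin receptor Lgr4 fell 2.09-fold and 2.12-fold, and Tcf7l2, a transcription factor of beta-catenin, 2.51-fold. Of 19 tested Wnt genes, 11 were called lower (57.9%, against 15.3% of all tested genes) and 1 higher (median -0.63). Notch genes had 6 of 17 called lower and none higher (median -0.49), with falls of the receptor Notch2 (2.10-fold), the co-activator Maml3 (2.23-fold), the glycosyltransferase Lfng (2.57-fold) and the ligand Jag1 (1.62-fold). With offsets for length and GC content, 5 Wnt and 3 Notch genes were called lower and the medians were -0.42 and 0.0079. Jag1 was not called with these offsets or without 24 hour replicate 2 (log2 -0.58 in the latter).

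Irs2, the insulin receptor substrate, was at 39.0, 37.0 and 42.1 CPM at 12 hours and 9.63, 10.8 and 10.3 CPM at 24 hours, a 3.82-fold fall. Klf2, a target of FOXO factors, was at 13.3, 12.2 and 13.3 CPM at 12 hours and 2.82, 2.17 and 2.35 CPM at 24 hours, and Trib1, a pseudokinase, fell 3.90-fold. Txnip, which limits glucose uptake, fell from 499 ± 3.56 to 254 ± 34.8 CPM, and Gadd45a, a growth arrest gene, rose 2.72-fold. Of 27 genes of FOXO and insulin signaling, 10 were called lower (37.0%, against 15.3% of all tested genes) and 4 higher (median -0.44), and with offsets for length and GC content 6 and 4 (median -0.18). Slc2a1, the glucose transporter, rose 1.86-fold, and the glycolytic enzymes Pgk1, Gapdh and Aldoa 1.64-, 1.63- and 1.63-fold, as the 4 of 20 glycolysis genes that were called. Under total counts only Slc2a1 of these was called, and the median of the list turned from 0.16 to -0.062. Hif1a did not differ beyond its error (log2 -0.013, SE 0.035), and of 18 hypoxia-induced genes only Adm, which encodes adrenomedullin, was called, at 1.27, 1.72 and 2.01 CPM at 12 hours and 4.94, 7.24 and 6.32 CPM at 24 hours.

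Period genes of the circadian clock fell, and the activator Arntl rose. Per2, a repressor of CLOCK and BMAL1, was at 16.4, 17.04 and 17.2 CPM at 12 hours and 4.09, 4.75 and 3.59 CPM at 24 hours, a 4.06-fold fall. Per3 fell 2.53-fold, and Tef and Dbp, PAR-type transcription factors of the clock output, 2.66- and 1.96-fold. Arntl, which encodes BMAL1 and was named after its values were seen, rose from 19.2 ± 0.515 to 34.3 ± 1.83 CPM. In all, 7 of 16 clock genes were called lower (43.8%, against 15.3% of all tested genes) and 3 higher (18.8%, against 10.4%). The E-box CACGTG, through which CLOCK and BMAL1 act, stood in the promoter windows of 4 of 13 clock genes (30.8%) and of 12.0% of all. The called clock genes that hold it upstream of the start are Tef and Per1 (log2 -0.73), the second named after its values were seen, and their stretches are shown because of it, with the E-box in capitals.
Tef, chr15:81802496-81802601, plus strand: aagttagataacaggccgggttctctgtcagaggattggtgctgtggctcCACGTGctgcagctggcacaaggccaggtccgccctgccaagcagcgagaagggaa
Per1, chr11:69098733-69098838, plus strand: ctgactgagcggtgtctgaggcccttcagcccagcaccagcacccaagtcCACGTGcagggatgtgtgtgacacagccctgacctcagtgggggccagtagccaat

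Some genes of prostate identity fell. Foxa1, a pioneer transcription factor of luminal prostate cells, was at 203, 197 and 206 CPM at 12 hours and 86.4, 86.9 and 93.3 CPM at 24 hours. All 24 hour libraries were below all 12 hour libraries. Zbtb16, a zinc-finger repressor, and Abcc4, a membrane transporter, fell 1.58- and 1.73-fold but were not called with offsets for length and GC content. Of 13 tested genes of the list, 6 were called lower (46.2%, against 15.3% of all tested genes) and none higher (median -0.45), and with these offsets 3 were called lower. The other way, 5 of the 13 were above 0, Hoxb13 the most (log2 0.49, not called). Of 8 tested luminal markers, 2 were called lower and 1, Krt18, under 1 CPM, higher (1.71). Krt8 (0.55), Krt19 (0.50), Cldn3 (0.29) and Cldn4 (0.21) were above 0 but not called. These markers and Hoxb13 were named here after their values were seen. The epithelial factors Grhl2 and Esrp2 fell 1.80- and 1.83-fold, and the desmosomal Pkp2 rose 1.80-fold, in a list of 18 epithelial genes with 3 called higher and 4 lower. With the offsets Grhl2 was not called (log2 -0.58), and 5 genes of the list were called higher and 3 lower.

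In the list of mesenchymal and matrix genes, which holds cytoskeletal genes and transcription factors too, more genes were called higher than lower. Vim, the intermediate filament vimentin, was at 217, 222 and 234 CPM at 12 hours and 433, 441 and 432 CPM at 24 hours, and Col12a1, a collagen, and Lamb3, a laminin chain, rose 2.31- and 1.78-fold. Of 26 genes, 11 were called higher (42.3%, against 10.4% of all tested genes) and 1 lower (3.85%, against 15.3%). Under total counts 5 were called higher and 4 lower, when 484 and 2830 of all tested genes were. YAP/TAZ targets had 2 of 20 called higher and 5 lower, against 10.4% and 15.3% of all tested genes. With offsets for length and GC content 5 were called higher and 3 lower, and under total counts 1 and 7. Tead1, a DNA-binding partner of YAP, rose 1.97-fold, while Amotl1, Amotl2 and Lats2, which restrain YAP, fell 2.18-, 2.43- and 1.97-fold, and Yap1 was not called (log2 -0.38), though it was under total counts (-0.60). The TGF-beta genes Inhba and Id1 rose 2.48- and 1.59-fold and Tgfb3 and Ski fell 2.46- and 2.73-fold, and of 20 genes of TGF-beta and BMP signaling 3 were called higher and 3 lower, and under total counts 2 and 6. Id1 was not called without 12 hour replicate 2 (0.58), under total counts (0.45) or with offsets for length and GC content.

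Enzymes that methylate or demethylate histone lysines were more often called lower, though not with offsets for length and GC content. Setd1b, an H3K4 methyltransferase, was at 79.0, 74.7 and 74.3 CPM at 12 hours and 15.6, 17.1 and 16.5 CPM at 24 hours, a 4.63-fold fall, and Kmt2d, another, fell 2.71-fold. Of 40 genes, 14 were called lower and 3 higher (median -0.38), where 15.3% and 10.4% of all tested genes were. With the offsets 3 were called lower and 2 higher (median -0.11), when 1231 and 1265 of 11369 genes were. The pro-apoptotic BH3-only genes Bcl2l11 and Bmf fell 2.77- and 2.52-fold and Bid 1.62-fold, as the only called genes of 12 of the BCL2 family, where under total counts 5 were called lower. Without 12 hour replicate 2, Bid was not called (-0.58).

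Among metabolic and proteostasis genes, the share called higher was 24.0% for cholesterol, 23.1% for NRF2 and 19.4% for proteasome genes, against 10.4% of all tested genes. The counts depended on the scaling, as those of all genes did. Under total counts 3, 3 and 1 genes of these lists were called higher, when 484 of all 11394 tested genes were, in place of 1184. Of 25 cholesterol genes, 6 were called higher, with Cyp51 (0.91), Pmvk (0.88) and Nsdhl (0.85), enzymes of sterol synthesis, at the top, and 2 lower (log2 fold changes). Of 15 genes of fatty acid synthesis, 1, the acyltransferase Gpam, was called lower (-0.63), but not with offsets for length and GC content (-0.37), where 1 was called higher. Of 31 proteasome subunits, 6 were called higher, with Psmd8 at 0.91. Of 35 lysosome and autophagy genes, 5 were called higher, with the microtubule-bound autophagy protein Map1lc3a at 0.82 and 1, the kinase Ulk1, lower at -0.74, which with the offsets was not called (-0.24). Antioxidant genes that NRF2 controls had 6 of 26 called higher, with Hmox1, which degrades heme, at 1.24 and the peroxidase Gpx1 at 1.13, while Nfe2l2, which encodes NRF2, was not called (-0.17). Splicing factors had 7 of 44 called higher and 3 lower, and the SR proteins Srsf5 (-1.27) and Srsf2 (-0.82) were among the falls. Under total counts none of the 44 was called higher and 5 were called lower. Of the 35 lysosome and autophagy genes 1 was then called higher and 3 lower. In that setting 484 of all 11394 tested genes were called higher and 2830 lower.

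**Figure D4:**
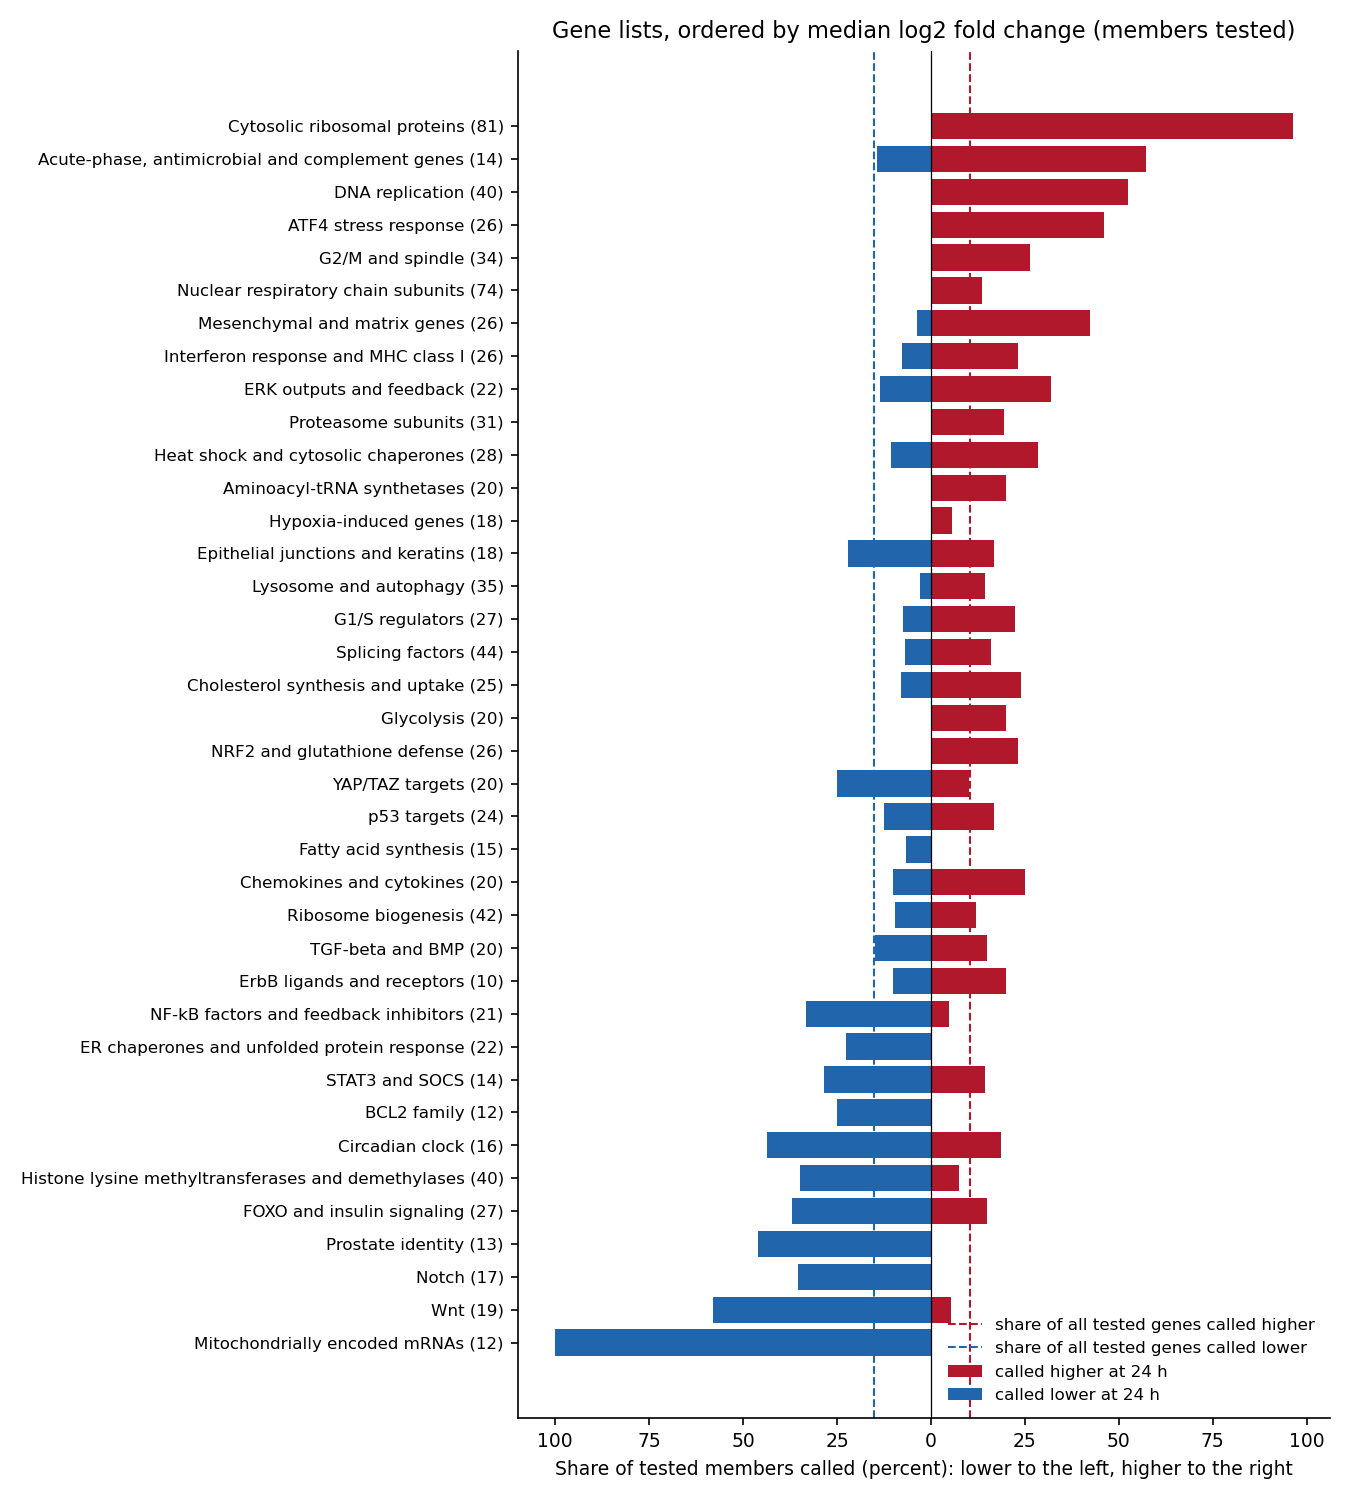
Share of the tested members of each of 38 gene lists called higher (red, to the right) and lower (blue, to the left) at 24 against 12 hours (x axis, percent), ordered by median log2 fold change, with the number tested in parentheses. Dashed lines mark the shares of all tested genes, 10.4% higher and 15.3% lower, and the ribosomal proteins (96.3% higher) and mitochondrial mRNAs (100% lower) stand at the ends.

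Genes with the largest changes outside these lists had varied roles. Pgf, placental growth factor, was at 0.465, 0.540 and 0.509 CPM at 12 hours and 3.71, 6.74 and 6.61 CPM at 24 hours. Glipr1 (2.33), Pla1a, a phospholipase (2.17), Slc39a4, a zinc importer (1.96), and Tubb2b, a beta-tubulin (1.87), followed among the rises (log2 fold changes). Fam43a was at 69.8, 63.9 and 64.3 CPM at 12 hours and 6.86, 9.76 and 7.83 CPM at 24 hours, the largest fall of a nuclear gene with a mean of at least 100 counts. Lpar6, a lysophosphatidic acid receptor, fell from 10.99 ± 1.27 to 1.91 ± 0.321 CPM, and Pcyox1l, Zfp87 and Ifi47 fell 5.61-, 5.84- and 5.18-fold. Among the most abundant nuclear genes that fell were the scaffold Ahnak (1.58-fold), the myosin Myh9 (1.82-fold) and Sidt2 (2.00-fold), the first 2 of which were not called with offsets for length and GC content.

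The called genes also differed in structure, which the comparison of times did not use. Nuclear genes with 1 exon, such as Fam43a and Lpar6, were called lower in 89 of 209 cases (42.6%) and higher in 21 (10.05%), with a median log2 fold change of -0.48. The 12 mitochondrial genes, all called lower, were left out of the exon classes. The share called lower was 31.5% for genes with 2 exons, 21.2% with 3, 12.7% with 4 to 10, 12.1% with 11 to 20 and 19.3% with over 20. Among nuclear genes with 1 exon and over 2000 nt of transcript, 68 of 117 were called lower (58.1%), against 16.2% of genes of that length with over 3 exons. Zinc-finger genes whose symbol begins with Zfp were called lower in 115 of 301 cases (38.2%).

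Transcript length and base composition moved with the calls too. Of transcripts up to 1000 nt, 22.2% were called higher and 5.56% lower, and of those over 6000 nt, 5.10% and 26.3%. Under total counts the calls among the shortest changed from 132 higher and 33 lower to 66 and 54, and among the longest from 77 and 397 to 28 and 592. The median length was 2429.5 nt for genes called higher, 4189 nt for genes called lower and 3022 nt for the rest. Across 11369 genes, which are not replicates, the Spearman correlation of the log2 fold change was -0.271 with length, -0.139 with GC content and 0.0071 with exon number. With offsets for length and GC content in the fit, 84 of the 209 nuclear genes with 1 exon were called lower and 17 higher. The 1579 genes with over 20 exons turned, with 105 called lower and 229 higher in place of 304 and 119, and of the 3389 genes with 11 to 20 exons 243 were called lower in place of 411.

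**Figure D5:**
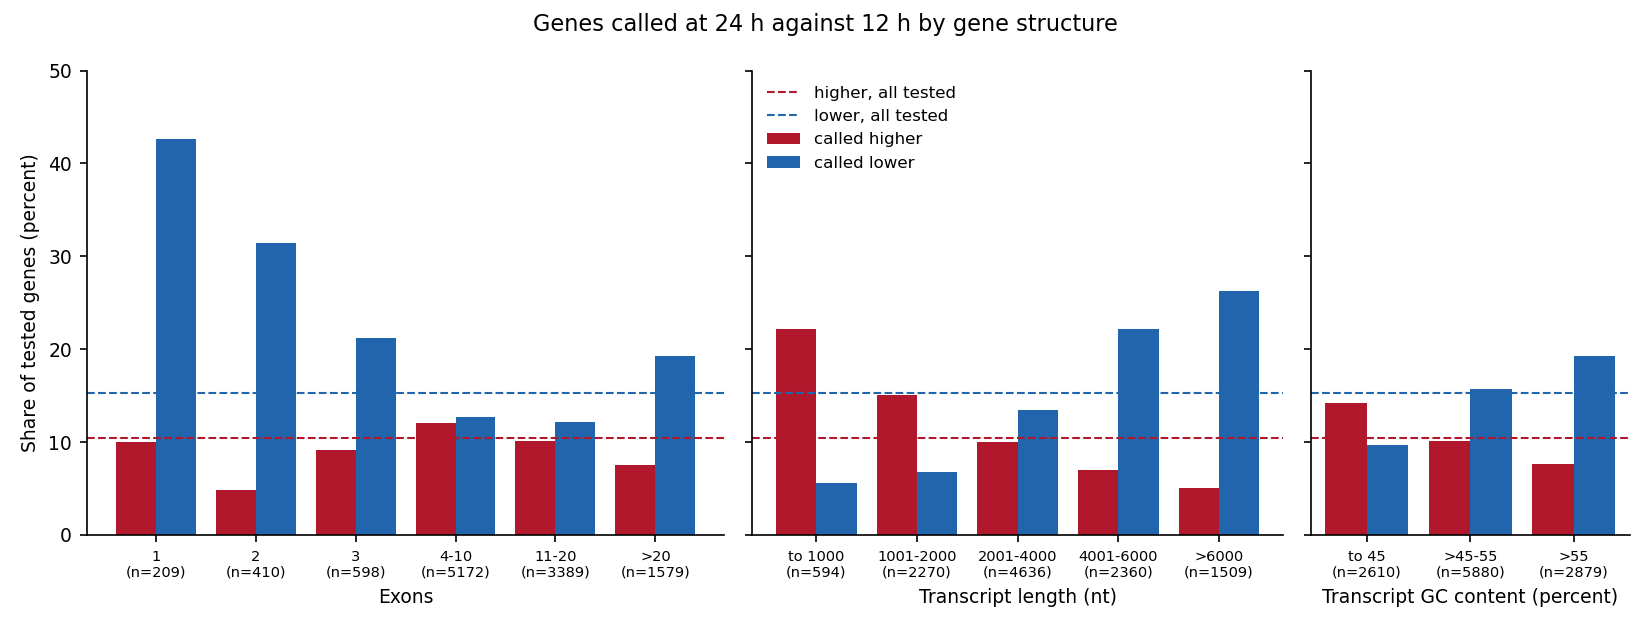
Share of tested genes (y axis, percent) called higher (red) and lower (blue) at 24 against 12 hours by number of exons, transcript length and transcript GC content, with the number of genes under each class. Dashed lines mark the shares of all tested genes, and the blue bars fall from 42.6% for nuclear genes of 1 exon to 12.1% for 11 to 20 exons, stand at 19.3% for over 20 exons, and reach 26.3% for the longest transcripts.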

How the data were processed

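The 6 libraries come from MyC-CaP cells after 12 or 24 hours with 100 ng/mL ASPN, in 3 wells a time. According to the study's methods, poly(A) libraries were sequenced as paired 150-base reads, trimmed with cutadapt, aligned with STAR to GRCm38.p6 and assigned to genes with featureCounts, and the authors deposited raw gene counts per library. The strand setting is not given in the sources used here. The counts covered 15384 protein-coding genes.

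Counts of the 6 libraries were filtered with filterByExpr, which kept 11394 genes, scaled with TMM factors and tested with the quasi-likelihood test of edgeR 4.0.16 in R 4.3.3, without a block. Calls required a fold change of 1.5 or more together with an adjusted p (Benjamini-Hochberg) no higher than 0.05. Log2 fold changes are 24 minus 12 hours. The median SE of a log2 fold change was 0.061, and counts of replicates varied more than counting error alone. Chi-square per degree of freedom was 3.41 to 4.21 for pairs of 12 hour libraries and 9.12 to 17.5 for pairs of 24 hour libraries. The code was tested on simulated data.

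Named genes were the 15 called genes with the largest rise and the 15 with the largest fall among those with a mean of at least 100 counts and groups that do not overlap, the 8 most abundant called genes in each direction, up to 4 called genes of each gene list with the largest changes, a mean of at least 50 counts and groups that do not overlap (all called genes of a list with 3 or fewer), and a set of regulators. Some genes that the rule named are not reported here. Genes outside this rule are said to be so or serve to complete a count. The members, the 38 gene lists and the tests were chosen with earlier results of these data known. Exon numbers, length and GC content came from GENCODE M21 and not from M24, which the study names, and 15309 genes had a transcript. Promoter sequences are RefSeq windows from 250 bases before to 50 after the start.

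Alternatives were DESeq2, RLE and upper-quartile factors, total counts, TMM factors without mitochondrial genes, no filter, at least 10 counts in each library, limma-voom, glmTreat, the adjusted p alone, offsets for length and GC content, a replicate block, a fit with the time 0 libraries, and leaving out each library in turn. The time 0 libraries entered no other step.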

Additional observations from a re-analysis of the deposited data

How the results depend on the processing

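The number of called genes was 2924, with 1184 higher and 1740 lower. It was 1768 with glmTreat at 1.5-fold (654 higher and 1114 lower), which tests against the fold itself, and 8124 with the adjusted p alone (4073 and 4051), which drops the fold. Under total counts the calls were 484 higher and 2830 lower, which was 85.4% of calls lower against 59.5%, with the median of all genes at -0.219. With offsets for length and GC content 49.3% of calls were lower (1265 higher and 1231 lower), and with the replicate block added 1245 higher and 1230 lower. Leaving out 1 library gave 2871 to 3003 called, 1157 to 1206 higher and 1698 to 1797 lower. The replicate numbers did not pair the libraries (correlations of deviations 0.0558, -0.0056 and 0.00185), and the replicate block gave 2926 called, 1183 higher and 1743 lower.

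List medians turned sign under total counts for p53 targets (-0.14), cholesterol (-0.023), glycolysis (-0.062), NRF2 (-0.066), YAP/TAZ (-0.096) and splicing factors (-0.022). Those of fatty acid synthesis (-0.19) and of chemokines and cytokines (-0.19) turned too. With 1 library left out, the fatty acid median was -0.0349 to 0.0576 and the chemokine median -0.0876 to 0.203. The chemokine median also turned with the replicate block (-0.010) and in other settings. With the length and GC offsets, without and with the replicate block, the medians were 0.024 and 0.025 for ribosome biogenesis, 0.0061 and 0.0016 for NF-kB, and 0.016 and 0.016 for TGF-beta and BMP, which ranged from -0.0919 to 0.0044 with 1 library left out, the latter without 24 hour replicate 2. The Notch median was 0.0079 with the offsets, and Hif1a was 0.011 with upper-quartile factors. The cause of these turns was not tested.

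Of 179 named genes, 25 were no longer called under total counts, 15 with glmTreat and 19 with the length and GC offsets, and 0 with DESeq2, RLE factors, the replicate block or limma-voom. Those lost under total counts were Pgk1, Hsp90ab1, Gapdh, E2f1, Rb1, Cct4, Aldoa, Cox4i1, Cox8a, Atp5e, Qars, Sars, Nars, Dars, Psmd1, Psmd4, Psmc6, Npc2, Lamp2, Gpx4, Errfi1, Id1, Hnrnpa1, Snrpe and Nos2, while Erbb3 and Yap1 became called. Those lost with the offsets included Ahnak, Myh9, Gpam, Cox4i1, Cox8a, Atp5e, Ubtf, Dars, Ulk1, Lamp2, Erbb2, Abcc4, Zbtb16, Grhl2, Id1 and Jag1. Leaving out a library ended the calls of Jag1, Nos2, Id1 and Bid. Calls were not compared by depth, and the labels name no batch.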
